A study of Homo sapiens with 15 samples.

Results

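Of 62195 H3K27ac peaks in the series, 1012 carried the mark in the parental MDA-MB-231 cells and held at most 0.4 times that level in cells selected for metastasis to the lung (LM2), to the brain (BrM2) or to both. A peak counted as marked when it had at least 4 CPM (its reads per 1000000 reads in H3K27ac peaks of the library) in both parental (Par) libraries, which 33352 peaks did. It counted as lost in a line when each replicate was at or below 0.4 times the Par replicate of the same number. By this rule 209 peaks were lost in LM2 only, 693 in BrM2 only and 110 in both, and the other 32340 are called peaks that were not lost. The H3K27ac values chose these peaks, so the H3K27ac levels below are a description without a test. In these bulk samples, fewer cells with the mark and less of the mark per cell cannot be told apart. The H3K4me3 libraries had no part in the choice and were tested.

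MDA-MB-231 is a triple-negative, claudin-low human breast cancer line. LM2 and BrM2 are sub-populations that were recovered from it by selection in mice for colonization of the lung and of the brain, and each stands for 1 such derivative. All 3 lines were kept untreated in monolayer with 10% serum for 3 days and fixed with 1% formaldehyde. The labels name no engineered allele and no agent in any group. Chromatin immunoprecipitation and sequencing (ChIP-seq) gave 2 replicates per line for H3K27ac and 2 for H3K4me3, so 12 libraries were used.

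H3K27ac is the acetylation of lysine 27 on histone H3. It is laid down by the acetyltransferases p300 and CBP, removed by histone deacetylases, and marks active enhancers and promoters. H3K4me3, trimethylation of lysine 4, marks the starts of active genes and is largely absent from distal enhancers. In basal and mesenchymal-like breast cancer cells, enhancers are often bound by AP-1, RUNX and TEAD factors.

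Lost peaks lay mostly away from gene starts, and 200 bases of 3 distal ones are printed first because they are among the most strongly marked in Par. Sequences are from GRCh37 (hg19), 5′ to 3′ on the plus strand, and capitals mark matches on either strand to TGANTCA (AP-1), TGTGGT (RUNX) or GGAATG (TEAD), in the stretch of the peak with the most such matches. Overlapping matches share their capitals. The first is from an intron of ZNF675 and lost in LM2 only, the next lies between genes with IER5L as the nearest start and was lost in BrM2 only, and the last, near LAIR2, was lost in both.
ZNF675, chr19:23730573-23730772: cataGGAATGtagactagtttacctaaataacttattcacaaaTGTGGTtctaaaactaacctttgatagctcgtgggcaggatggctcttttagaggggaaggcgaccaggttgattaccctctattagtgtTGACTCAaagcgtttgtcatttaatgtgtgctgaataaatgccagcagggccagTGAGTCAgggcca
IER5L, chr9:132108339-132108538: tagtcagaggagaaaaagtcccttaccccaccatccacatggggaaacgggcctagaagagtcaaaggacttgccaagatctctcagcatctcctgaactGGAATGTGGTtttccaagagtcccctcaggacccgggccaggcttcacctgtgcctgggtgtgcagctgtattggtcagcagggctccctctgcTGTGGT
LAIR2, chr19:55032534-55032733: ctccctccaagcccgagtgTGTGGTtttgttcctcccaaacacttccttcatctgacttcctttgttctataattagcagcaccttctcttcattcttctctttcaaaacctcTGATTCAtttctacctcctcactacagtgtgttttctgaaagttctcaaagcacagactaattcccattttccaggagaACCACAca
These stretches held 2 AP-1 matches at ZNF675, 0 at IER5L and 1 at LAIR2, and each held at least 1 match to RUNX. A match describes letters and not binding.

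Promoters were a small share of the losses, and 3 of those with the largest tested H3K4me3 falls are printed because both marks were lower there. The 200 bases before the start of DACT2 (a Wnt signalling inhibitor), IRX1 (an Iroquois homeobox factor) and KLF14 (a Krüppel-like factor) are shown on the strand of the gene, with matches to CNCGCCC, the KLF and SP motif, in capitals.
DACT2, chr6:168720458-168720657: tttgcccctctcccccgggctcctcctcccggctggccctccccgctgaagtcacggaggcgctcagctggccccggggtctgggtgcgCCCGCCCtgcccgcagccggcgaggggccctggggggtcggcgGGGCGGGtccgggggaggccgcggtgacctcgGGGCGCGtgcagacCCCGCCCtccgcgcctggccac
IRX1, chr5:3595746-3595945: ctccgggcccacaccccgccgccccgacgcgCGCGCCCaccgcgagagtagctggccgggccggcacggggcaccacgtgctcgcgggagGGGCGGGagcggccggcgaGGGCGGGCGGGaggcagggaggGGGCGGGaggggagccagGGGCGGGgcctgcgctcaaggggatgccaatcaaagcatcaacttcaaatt
KLF14, chr7:130418968-130419167: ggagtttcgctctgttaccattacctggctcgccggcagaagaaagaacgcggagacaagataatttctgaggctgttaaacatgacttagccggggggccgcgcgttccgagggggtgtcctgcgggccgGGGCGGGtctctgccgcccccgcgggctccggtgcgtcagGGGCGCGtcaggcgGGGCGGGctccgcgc
DACT2 held 23 CG dinucleotides in this stretch, IRX1 25 and KLF14 24.

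Totals in peaks were between 1994996 and 6450028 reads for H3K27ac and between 3489607 and 9839629 for H3K4me3. The second BrM2 library of H3K27ac was the shallowest. There 1 read equals 0.501 CPM, and a peak at 4 CPM in Par could be lost with 3.19 reads, so single low ratios in that library are imprecise. All 8 basal and mesenchymal-like markers (among them VIM, EGFR and AXL) had an H3K4me3 peak at their start, with a summed level of 1545 to 1806 CPM per library. The 8 luminal markers summed to 173 to 337 CPM, and the 5 leukocyte and endothelial markers had 0 promoter peaks.

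Lost peaks had moderate levels in Par. Their median Par level was 9.83 CPM for LM2 only, 10.6 for BrM2 only and 10.1 for both, against 16.9 for peaks that were not lost. Among LM2 only peaks the median was 10.0 and 9.66 CPM for the Par libraries, 2.95 and 2.66 for LM2 and 6.88 and 6.52 for BrM2. Among BrM2 only peaks it was 10.7 and 10.4 CPM for Par, 7.75 and 7.18 for LM2 and 3.06 and 2.51 for BrM2. Peaks of either class were thus also below Par, by their median, in the line where they did not pass the rule. The Par values in this comparison are those that chose the peaks, and the part of that choice in it was not tested. In BrM2, 152 of the 209 LM2 only peaks were under Par in both replicates, with a median ratio of 0.582. In LM2, 498 of the 693 BrM2 only peaks were, with a median ratio of 0.671. A class name therefore says where the limit was passed and not that the other line kept its level.

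Peaks close to the limit show how narrow it is. An intergenic peak 79430 bp from CLCN4 passed in LM2 with 19.4 and 11.2 CPM in Par against 7.75 and 3.72 in LM2, while a peak 15812 bp from RPL24 just missed with 18.9 and 14.6 in Par against 6.51 and 5.85. For BrM2, a peak 18193 bp from ABCA1 passed with 43.3 and 37.8 CPM in Par against 17.3 and 14.5. Within 0.05 of the limit, the larger of both replicate ratios lay just inside for 128 peaks in LM2 and 287 in BrM2, and just outside for 162 and 361.

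The strongest peak lost in LM2 only was in an intron of ZNF675, a zinc finger gene of chromosome 19. It had 112 and 95 CPM for Par, 17.8 and 25.3 for LM2, and 153 and 151 for BrM2. LM2 was 4.79-fold below Par there, and both BrM2 libraries were above both Par libraries. A peak 40667 bp from EPHB6, an ephrin receptor without kinase activity, had 77.3 and 69.4 CPM for Par, 7.60 and 11.2 for LM2 and 58.9 and 57.6 for BrM2. That is 7.82-fold below Par in LM2. Near GSDMC, a gasdermin gene, the levels were 55.4 and 62.4 CPM for Par, 19.8 and 23.1 for LM2 and 67.0 and 66.2 for BrM2, so the loss was again seen in the lung-selected cells alone. NEDD9, a scaffold of focal adhesions, differed from these. Its peak had 68.2 and 51.9 CPM for Par, 17.4 and 17.6 for LM2, and 16.6 and 22.1 for BrM2, and it escaped the class lost in both only through the second BrM2 replicate, at 0.425 times Par. A peak 62113 bp from ARHGAP5 was the mildest of these, at 115 and 76.2 CPM in Par against 43.6 and 29.0 in LM2.

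The lowest ratios in LM2 were at weaker peaks. One lay 2987 bp from a start of GATA6, a GATA factor of endoderm and heart, with 11.4 and 11 CPM for Par, 0.775 and 1.06 for LM2 and 16.3 and 8.52 for BrM2. The LM2 values stand for 5 and 4 reads. A second GATA6 peak, 5583 bp from a start and inside the gene, was also lost in LM2 only, at 8.89 and 4.96 CPM in Par against 3.41 and 1.86. An intronic CAMK1D peak had 12.1 and 14.6 CPM in Par and 1.24 and 0.532 in LM2, while BrM2 had 19.4 and 16. The remaining lowest ratios were near ARHGAP20, SIGLEC6 and UNC93A, at 0.930 to 1.40 CPM in the first LM2 library.

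Among peaks lost in BrM2 only, the highest Par level was in the SLC30A10 gene, which encodes a manganese exporter. This intronic peak had 234 and 179 CPM for Par, 140 and 123 for LM2 and 59.6 and 62.7 for BrM2. LM2 was between Par and BrM2, and no library of one line overlapped another line. Between PRAG1, a pseudokinase gene, and its neighbour, a peak had 151 and 148 CPM for Par, 122 and 115 for LM2 and 20.4 and 16 for BrM2, an 8.20-fold lower level in BrM2. At the promoter of PLP2, which encodes a proteolipid of the endoplasmic reticulum, the levels were 117 and 156 CPM for Par, 98.6 and 112 for LM2 and 44.9 and 50.6 for BrM2. The intergenic peak with IER5L as nearest start was above Par in LM2, at 182 and 174 CPM against 111 and 147, and at 40.3 and 45.1 in BrM2. A peak 44918 bp from CDON, a cell surface receptor of hedgehog signalling, had 79.1 and 132 CPM for Par, 46.7 and 55.3 for LM2 and 30.1 and 34.1 for BrM2.

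Levels near 1 read were common among the lowest ratios in BrM2. A peak 38223 bp from LRLE1 had 7.98 and 15.7 CPM for Par, 7.29 and 11.4 for LM2 and 0.510 and 1.00 for BrM2, where both libraries held 2 reads. The peak 89723 bp from CLDN23 had 11.4 and 14.1 CPM in Par and 0.510 and 1.5 in BrM2. Near ATF7IP, PWWP2B and HS3ST3A1 the first BrM2 library had 1.27, 0.510 and 1.02 CPM against 15.5, 7.30 and 11.2 in the first Par library. In all, 32 of the 693 peaks had 3 reads or fewer in both BrM2 libraries, and for these no fold is given.

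The peak lost in both lines with the largest Par level overlapped the start of CST4, a salivary cystatin gene. It had 100 and 109 CPM for Par, 31.6 and 29.0 for LM2, and 37.7 and 39.1 for BrM2. The deepest loss among strong peaks was in an intron of ACTR3C, whose product is related to a subunit of the Arp2/3 complex, at 76.2 and 128 CPM for Par, 10.5 and 14.1 for LM2 and 9.18 and 14.0 for BrM2. This is 8.27-fold lower in LM2 and 8.78-fold lower in BrM2. Near LAIR2, a gene for a soluble collagen receptor, the levels were 107 and 85.3 CPM for Par, 23.1 and 16.2 for LM2 and 26.0 and 26.6 for BrM2. A peak far from any gene, 745112 bp from ADGRB3, had 62.0 and 122 CPM for Par, 21.7 and 38.3 for LM2 and 14.8 and 22.1 for BrM2. A further peak of the SLC30A10 gene, with ZC3H11B as nearest start, had 82.8 and 79.3 CPM for Par, 24.0 and 21.8 for LM2 and 19.1 and 22.6 for BrM2. At all 5 of these peaks no library of LM2 or BrM2 overlapped a Par library.

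Among weaker peaks lost in both lines, one 11589 bp from SPATA31D4 had 13.5 and 18.8 CPM for Par, 0.775 and 1.33 for LM2 and 1.02 and 2.51 for BrM2. An intronic peak of SEMA4D, a semaphorin of axon guidance, had 6.84 and 12 CPM for Par, 1.09 and 1.33 for LM2 and 1.27 and 1.00 for BrM2. Peaks near IL21 and in MEGF10 (nearest start PRRC1) were at 13.2 and 8.61 CPM and at 9.12 and 11.5 CPM in Par, and at 1.00 to 2.17 CPM in the metastatic libraries.

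**Figure D1:**
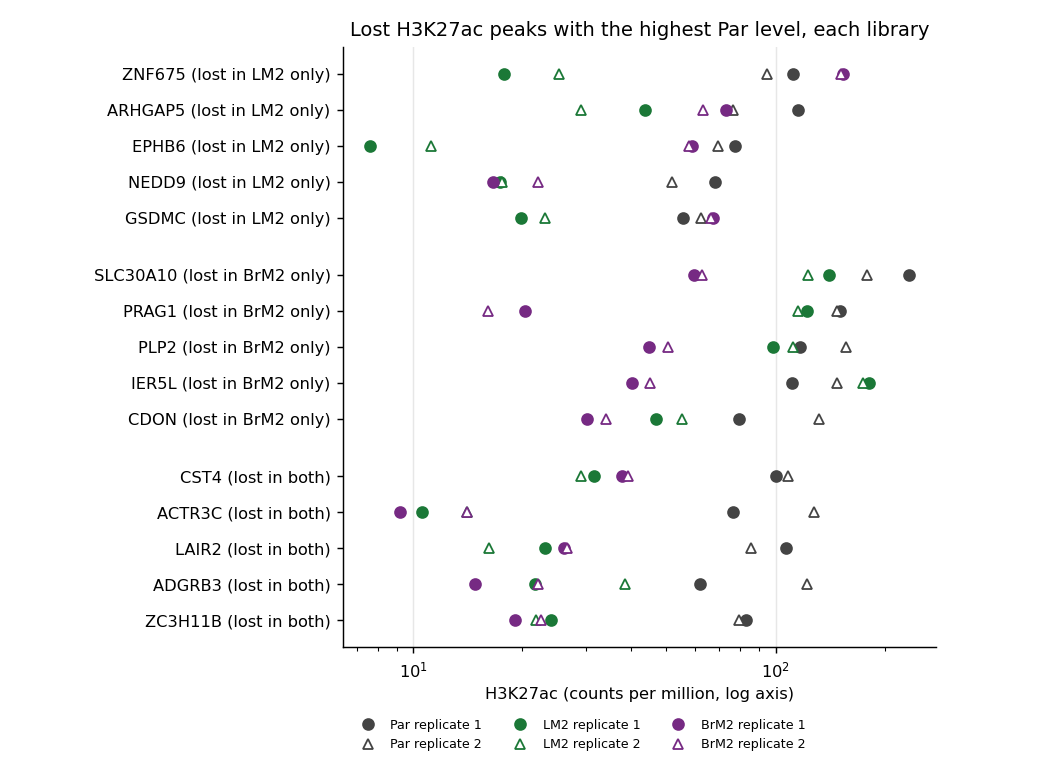
H3K27ac level (CPM, log axis) in each of the 6 libraries at the 5 lost peaks of each class with the highest Par level, named by the nearest gene start. Filled circles are replicate 1 and open triangles replicate 2. At ZNF675 the LM2 points lie at 17.8 and 25.3 CPM, left of all others, and at ACTR3C all 4 metastatic points lie between 9.18 and 14.1 CPM.

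Position set lost peaks apart from those that were not lost. Only 122 of the 1012 (12.1%) lay within 2 kb of a protein-coding start, against 38.0% of peaks that were not lost. By class the share was 10.0% (LM2 only), 13.1% (BrM2 only) and 9.09% (both). Another 466 lost peaks were intergenic (46.0%, against 29.9%), 346 intronic and 78 in exons. An H3K4me3 peak was overlapped by 17.2% of lost peaks and 49.2% of the others. Lost peaks were also shorter than those that were not lost. Their medians were 1639, 1892 and 1443 bp in the classes LM2 only, BrM2 only and both, against 2724 bp. Over all H3K27ac peaks the median was 1468 bp. The median GC content of lost peaks was 44.9%, 44.5% and 45.5%, against 47.3% for peaks that were not lost and 46.2% for all. Length and GC content were not compared at like Par level or position.

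Weak peaks pass a ratio limit more easily by counting error, so the share was also taken by Par level. Among peaks with a mean of 4 to 8 CPM in Par, 2.68% of promoter peaks (95% Wilson interval 1.89 to 3.80) and 5.56% of distal peaks (5.00 to 6.18) were lost. At 32 CPM and over, 0.377% of promoter peaks (0.241 to 0.588) and 1.90% of distal peaks (1.51 to 2.39) were. The share lost was higher for distal than for promoter peaks in each of the 4 level ranges. These intervals cover counting error only, and neighbouring peaks are not independent.

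**Figure D2:**
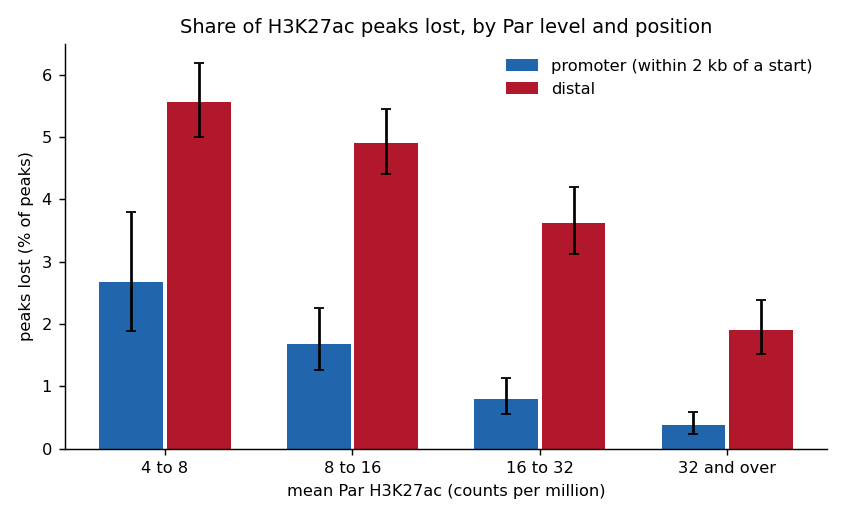
Share of H3K27ac peaks lost in LM2, BrM2 or both (% of peaks marked in Par), by mean Par level and by position, with 95% Wilson intervals. Distal peaks stand above promoter peaks in all 4 ranges, from 5.56% against 2.68% in the lowest to 1.90% against 0.377% in the highest.

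The motif content of lost peaks was close to that of other distal peaks, with a few differences between classes. In the central 1 kb, a TGANTCA match (AP-1) was found in 50.5% of distal LM2 only peaks, 51.3% of distal BrM2 only peaks and 31.0% of distal peaks lost in both (95% Wilson interval 22.8 to 40.6), against 49.8% of distal peaks that were not lost and 38.5% of all H3K27ac peaks. TGTGGT (RUNX) was in 66.1% of distal BrM2 only peaks (62.2 to 69.8), 55.3% of distal LM2 only peaks and 55.3% of distal peaks that were not lost, with 50.3% among all peaks. GTTGCCA (RFX) was in 20.0% of distal peaks lost in both (13.3 to 28.9), against 10.2% of distal peaks that were not lost and 9.93% of all. TGTTTAC (FOX) was in 20.2% of distal LM2 only peaks (15.1 to 26.5), against 14.8% and 13.0%. GGAATG (TEAD) was in 51.5 to 56.4% of the distal peaks of the 3 classes, against 49.5%. The KLF and SP letters, in 43.9% of all peaks that were not lost, were in 24.4% of the distal ones, close to the 22.0 to 25% in distal lost peaks. Shares of distal lost peaks ranged over the classes from 2.13 to 5.00% for the ETS letters CGGAAGT, against 3.27% of distal peaks that were not lost and 5.21% of all. The GATA letters AGATAA were in 38.0 to 50.5%, against 46.7% and 42.1%. For GRHL (AACNNGTT) the range was 13.0 to 14.4%, against 14.8% and 13.8%, and for CEBP (TTGCNNAA) it was 34.6 to 40.0%, against 40.3% and 36.2%. A match is a description of letters, and no test was run on these shares. They were not compared at like Par level. The intervals cover counting error only, and neighbouring peaks are not independent.

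Chromosomes differed in the share of peaks lost. On chromosome X, 143 of 859 marked peaks were lost (16.6%), against 3.03% over all chromosomes. X held 28.2% of the peaks lost in both, 13.4% of BrM2 only and 9.09% of LM2 only peaks, but 2.21% of peaks that were not lost. Chromosome 7 followed with 94 of 1792 peaks (5.25%) and chromosome 8 with 70 of 1470 (4.76%), 61 of them BrM2 only. On chromosome 9, 46 of 53 lost peaks were BrM2 only.

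The peaks around the losses moved too. Among X peaks that were not lost, the median log2 ratio was -0.25 for LM2 over Par and -0.44 for BrM2 over Par, against -0.05 and -0.08 over all chromosomes. H3K4me3 peaks of X that no lost peak overlapped had medians of -0.19 and -0.25, against 0.00 and -0.06 over all. Chromosome 7 showed -0.33 and -0.34 for H3K27ac and -0.23 and -0.35 for H3K4me3, and chromosome 9, with 0.05 in LM2 and -0.40 in BrM2 for H3K27ac, had 0.12 and -0.38 for H3K4me3. When each ratio was divided by the median ratio of other peaks within 2.5 Mb on either side, 591 peaks passed the rule, of which 23 (3.89%) were on X, and 520 of the 1012 were among them. The 3 input libraries were not analysed here, and the part of these neighbouring levels in the losses was not tested.

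**Figure D3:**
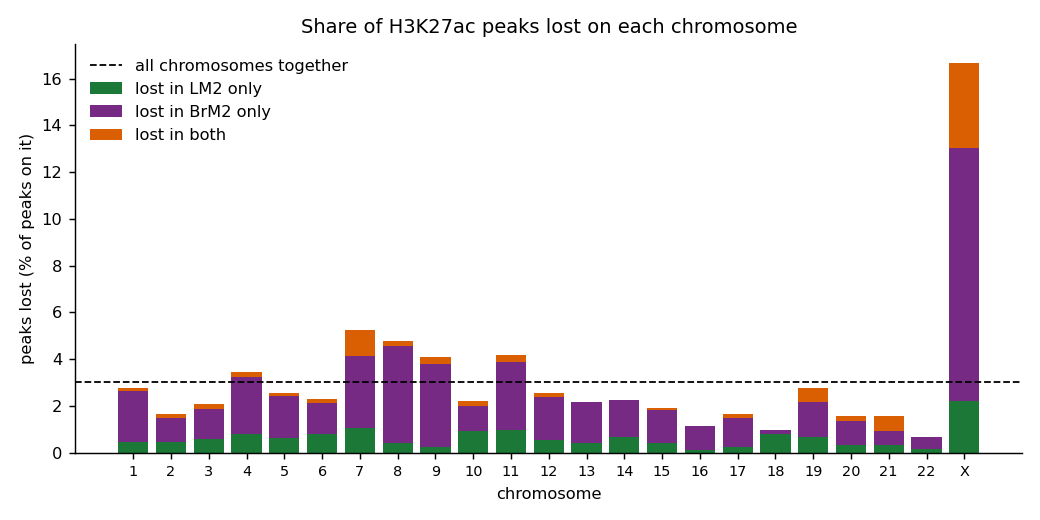
Share of H3K27ac peaks marked in Par that were lost (% of such peaks on a chromosome), stacked by class, with the value over all chromosomes as a dashed line at 3.03%. Chromosome X reaches 16.6%, and chromosomes 7 and 8 reach 5.25% and 4.76%.

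Many losses sat next to each other. In 78 runs of at least 3 lost peaks, with neighbouring centres at most 500 kb apart, lay 399 peaks (39.4%), 115 of them in 15 runs on X. The share in runs was 30.6% for LM2 only, 40.1% for BrM2 only and 51.8% for both.

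The run with the most losses spanned 929 kb of chromosome 8 (chr8:8080244-9009578, hg19) and held 30 lost peaks, each in BrM2 only, of 31 peaks marked in Par. Its genes include PRAG1, CLDN23 (a claudin), MFHAS1, ERI1 and PPP1R3B (a glycogen-targeting subunit of protein phosphatase 1). The median log2 ratio of its lost peaks was -2.77 in BrM2 (range -3.36 to -1.41) and -0.20 in LM2 (range -1.09 to 0.63). The 9 H3K4me3 peaks in this stretch were all below Par in BrM2, with a median log2 fold change of -2.42, and 4 of them passed the test there (7 with replicate number as a block in the fit). In LM2 3 of the 9 were below Par, with a median of 0.12. In the direct comparison with LM2, 5 were called lower in BrM2; the block gave 7.

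The run of X with the most losses (chrX:12960765-13671951, 711 kb, from TMSB4X to EGFL6) had another pattern. It held 21 lost peaks of 35, of which 11 were lost in both, 9 in BrM2 only and 1 in LM2 only. The 14 peaks that were not lost were also all below Par, with median log2 ratios of -1.18 in LM2 and -1.09 in BrM2. Lost peaks had medians of -1.61 and -1.96. Of 3 H3K4me3 peaks, 3 were below Par in each line, and 1 was called lower in each (2 with the block). A neighbouring run (chrX:14890646-17051994) with 16 lost peaks of 33, near PIGA, AP1S2, GRPR and REPS2, held 15 H3K4me3 peaks, all 15 below Par in both lines (medians -0.99 and -1.03), with 3 called lower in LM2 and 5 in BrM2 (9 and 10 with the block). In the run at chrX:45344130-46639399, near KRBOX4, CHST7 and SLC9A7, 14 of 35 peaks were lost, 12 in BrM2 only. Peaks there that were not lost had a median of -0.98 in BrM2 and -0.15 in LM2.

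**Figure D4:**
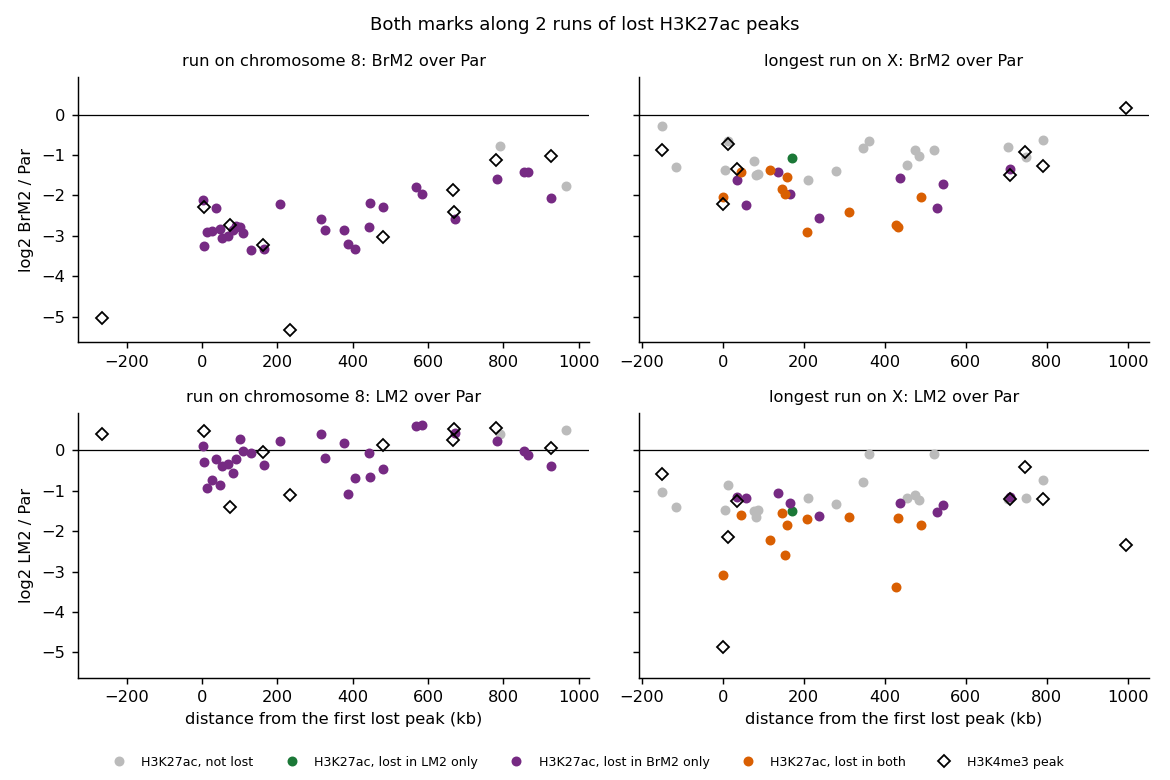
Log2 ratio of BrM2 over Par (top) and LM2 over Par (bottom) for H3K27ac peaks (circles, mean of the replicate ratios) and H3K4me3 peaks (diamonds, DESeq2) along the run on chromosome 8 (left) and the run with the most losses on X (right), by distance from the first lost peak. On chromosome 8 the lost peaks lie between -3.36 and -1.41 in BrM2 and between -1.09 and 0.63 in LM2, and on X lost and other peaks lie under 0 in both lines within the run.

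H3K4me3 is a second measure of these peaks, from the same lines, that the rule did not use. It was available for the 174 lost peaks that overlapped an H3K4me3 peak, 35 of LM2 only, 126 of BrM2 only and 13 of both, each with an H3K4me3 peak of its own. Differences were tested with DESeq2 over all 22572 H3K4me3 peaks, with adjusted p under 0.05 as the call. A lost peak without H3K4me3 carries no such value, so these results describe the part of the lost peaks near starts or with promoter-like marks. Levels around the losses moved in both marks, as given above, and their part in the H3K4me3 calls was not tested.

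In LM2 against Par, 15 of 30 tested H3K4me3 peaks at LM2 only peaks were called lower, with a median log2 fold change of -1.87 over the 35. Over all H3K4me3 peaks 0.538% were called lower and 1.97% higher. At peaks lost in both, 5 of 11 were called lower (median -3.08 over 13). At BrM2 only peaks, 4 of 112 were called lower and 3 higher, with a median of -0.23. At LM2 only peaks and at peaks lost in both, 0 were called higher by DESeq2, 0 at an unadjusted p under 0.05 and 0 by edgeR. With the replicate number as a block, 20 of 30 LM2 only, 8 of 9 both and 19 of 105 BrM2 only peaks were called lower in DESeq2, where 5.49% of all peaks were called lower and 8.9% higher, and 9 BrM2 only peaks were called higher.

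In BrM2 against Par, 37 of 123 tested H3K4me3 peaks at BrM2 only peaks were called lower, and the median log2 fold change was -1.36 over the 126, of which 121 were below 0. Of all H3K4me3 peaks 0.791% were called lower and 2.82% higher. At peaks lost in both, 5 of 12 were called lower (median -2.22), and at LM2 only peaks 2 of 35 (median -0.36). The count called higher was 0 for all 3 classes in DESeq2 and in edgeR on cell line alone, and 0 at an unadjusted p under 0.05 in DESeq2. With the block, 64 of 123 BrM2 only, 6 of 12 both and 5 of 35 LM2 only peaks were called lower, beside 9.11% of all peaks, and 1 LM2 only peak was called higher, beside 8.55% of all (4 by edgeR with the block).

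The metastatic lines were also compared directly. Of H3K4me3 peaks at LM2 only peaks, 11 of 35 were called higher in BrM2 and 0 lower (0 at an unadjusted p under 0.05, 0 with edgeR and 2 with edgeR and the block), and of those at BrM2 only peaks, 25 of 126 were called lower and 0 higher (also 0 at an unadjusted p under 0.05 and 0 with edgeR). Over all peaks 1.13% were called lower and 2.05% higher. At peaks lost in both, 1 of 13 was called lower. With the block 15 of 32 LM2 only peaks were called higher and 52 of 120 BrM2 only peaks lower, where 13% of all peaks were called lower and 8.99% higher.

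Runs did not hold all of these calls. Outside runs, 14 of 24 tested H3K4me3 peaks at LM2 only peaks were called lower in LM2, and 16 of 67 at BrM2 only peaks were called lower in BrM2. Inside runs 21 of 56 of the latter were. By position, promoters gave 9 of 11 calls and distal sites 6 of 19 for LM2 only in LM2, and 25 of 59 and 12 of 64 for BrM2 only in BrM2. The difference by position was not tested.

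**Figure D5:**
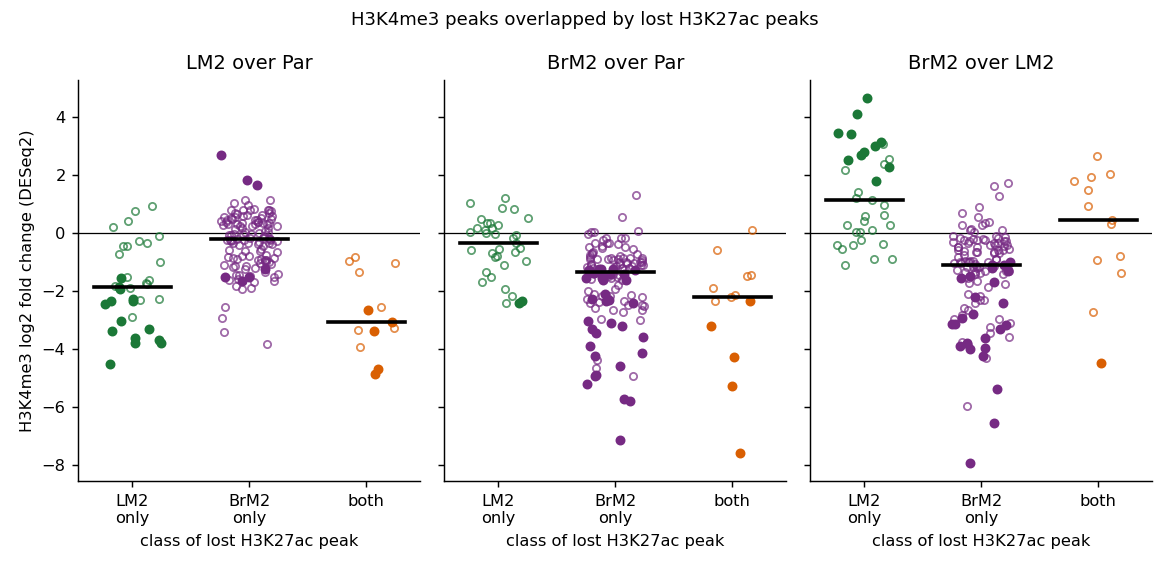
H3K4me3 log2 fold change (DESeq2) at the H3K4me3 peaks that lost H3K27ac peaks overlap, for LM2 over Par, BrM2 over Par and BrM2 over LM2, by class of loss. Filled points have an adjusted p under 0.05, open points do not or were not tested, and bars are medians (-1.87, -0.23 and -3.08 in the first panel, -0.36, -1.36 and -2.22 in the second, and 1.11, -1.09 and 0.44 in the third).

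At LM2 only peaks, the 6 largest H3K4me3 falls among peaks with a mean of at least 50 normalized counts were at the promoters of DACT2, FAM24B, ZYG11A and FAM83H and at sites with ZNF429 and FRG2C as nearest start. At DACT2, whose sequence is given above, the normalized counts were 66.1 and 47.8 for Par, 1.52 and 5.29 for LM2 and 115 and 89.0 for BrM2. LM2 against Par gave a log2 fold change of -3.79 ± 0.67 (SE), with an adjusted p of 6.28e-06 (DESeq2), and both BrM2 libraries were above both Par libraries. FAM24B had 316 and 186 for Par, 22.9 and 24.9 for LM2 and 286 and 222 for BrM2 (log2 fold change -3.37 ± 0.43, adjusted p 1.47e-11). ZYG11A, a gene for a substrate receptor of ubiquitin ligases, had 325 and 236 in Par against 62.5 and 47.6 in LM2, and FAM83H, a keratin-organizing gene of enamel formation, 180 and 203 against 35.1 and 42.4. Their log2 fold changes were -2.36 ± 0.41 and -2.29 ± 0.40 (adjusted p 2.33e-06 and 3.21e-06). A site with FRG2C as nearest start had 88.2 and 88.6 for Par against 13.7 and 19.6 for LM2 (-2.36 ± 0.49, adjusted p 0.000306). At these 5 genes BrM2 was not called against Par, with adjusted p from 0.609 to 0.996.

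An intronic site on chromosome 19, 41050 bp from ZNF429 as the nearest start, was the exception among these 6 LM2 only sites. Its H3K4me3 counts were 132 and 143 for Par, 15.2 and 32.3 for LM2, and 26.4 and 27.4 for BrM2. Both contrasts passed, with log2 fold changes of -2.46 ± 0.49 (adjusted p 0.000137) and -2.35 ± 0.49 (adjusted p 0.000178). Both metastatic lines thus lay below both Par libraries.

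GATA6 showed 2 kinds of H3K4me3 peak. The broad one over its promoter, of 10076 bp, had 1216 and 1046 normalized counts for Par, 991 and 678 for LM2 and 1295 and 922 for BrM2 (log2 fold change in LM2 -0.44 ± 0.34, adjusted p 0.987, and 0.000451 with the block). The small one inside the gene had 16.5 and 29.3 for Par, 1.52 and 2.12 for LM2 and 43.5 and 22.4 for BrM2 (-3.61 ± 0.97, adjusted p 0.013). The LM2 value rests on 1 and 4 reads. GATA6 is named for its H3K27ac ratio, and its second peak was chosen after its values were seen.

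In BrM2 the largest falls among well-covered H3K4me3 peaks were at the promoters of IFITM10, IRX1, PRAG1, CLDN23 and MFHAS1 and at a site with ZNF680 as nearest start. IFITM10, of the interferon-induced transmembrane family, had 178 and 332 normalized counts for Par, 200 and 269 for LM2 and 11.9 and 16.8 for BrM2. The log2 fold change was -4.12 ± 0.48 (adjusted p 1.3e-14). IRX1 had 272 and 244 for Par, 407 and 364 for LM2 and 19.8 and 30.5 for BrM2 (-3.31 ± 0.40, adjusted p 6.98e-14). LM2 was above Par at IRX1 in both libraries, without a call in the fit on cell line (adjusted p 0.784, and 0.0369 with the block). IRX1 lies in a run of 3 lost peaks on chromosome 5, where 2 of 2 H3K4me3 peaks were below Par in BrM2 and 0 in LM2.

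PRAG1, CLDN23 and MFHAS1 lie in the run on chromosome 8. PRAG1 had 873 and 741 for Par, 843 and 724 for LM2 and 94.9 and 79.0 for BrM2 (-3.22 ± 0.33, adjusted p 6.11e-19). CLDN23 had 487 and 271, 518 and 307, and 55.4 and 38.6 in the same order (-3.02 ± 0.43, adjusted p 1.01e-09), and MFHAS1, a leucine-rich repeat gene, had 737 and 509, 1083 and 712, and 125 and 108 (-2.42 ± 0.36, adjusted p 9.53e-09). With the block, MFHAS1 was also called higher in LM2 than in Par (0.52, adjusted p 0.00187, against 0.886 on cell line alone). An intergenic site on chromosome 7, 11603 bp from ZNF680 as the nearest start, was lower in both lines, at 123 and 163 for Par, 35.1 and 53.5 for LM2 and 27.7 and 29.3 for BrM2 (BrM2 -2.33 ± 0.47, adjusted p 6.97e-05, and LM2 -1.67 ± 0.45, adjusted p 0.0142). This site lies in a run of 6 lost peaks, where 10 of 14 H3K4me3 peaks were below Par in LM2 and 13 in BrM2. PLP2, among the strongest BrM2 only peaks in H3K27ac, had 468 and 381 for Par, 371 and 352 for LM2, and 157 and 178 for BrM2 (-1.34 ± 0.33, adjusted p 0.00306).

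RUNX2, the osteoblast factor of the RUNX family, is named here after its values were seen. Its lost H3K27ac peak covered a start, with 19.2 and 16.7 CPM for Par, 9.46 and 7.71 for LM2, and 3.31 and 4.01 for BrM2. The H3K4me3 peak there was weak, with 16.5 and 30.1 normalized counts for Par, 6.10 and 10.6 for LM2, and 0 and 0.622 for BrM2 (-5.78 ± 1.57, adjusted p 0.0105). BrM2 held 0 and 1 reads, so the size of this change is not well determined. The H3K4me3 peak with the most reads within 2 kb of a RUNX2 start was not called in BrM2 (-0.52 ± 0.30, adjusted p 0.584, DESeq2). In LM2 its log2 fold change was -0.14 ± 0.29, also without a call.

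KLF14 was the 1 site lost in both lines with a mean of at least 50 normalized counts that was called lower in both. Its H3K4me3 was at 290 and 181 normalized counts for Par, 18.3 and 34.9 for LM2, and 0 and 1.87 for BrM2. LM2 against Par gave -3.08 ± 0.49 (adjusted p 2.37e-07) and BrM2 against Par -7.57 ± 0.97 (adjusted p 4.17e-12), the latter on 0 and 3 reads and so no bound. H3K27ac over KLF14 was 5.02 and 8.61 CPM for Par, 0.310 and 1.86 for LM2, and 0.255 and 0.501 for BrM2. KLF14 lies in a run of 5 lost peaks on chromosome 7, where 18 of 20 H3K4me3 peaks were below Par in LM2 and 12 in BrM2.

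H3K4me3 was called higher in LM2 at 3 of the BrM2 only peaks. PDE8B, a cyclic AMP phosphodiesterase gene, had 60.6 and 66.3 for Par, 459 and 365 for LM2 and 31.6 and 34.9 for BrM2 (LM2 2.69 ± 0.38, adjusted p 1.05e-09). AKAP12, a scaffold of protein kinases A and C, had 108 and 57.0 for Par, 308 and 197 for LM2 and 17.1 and 15.6 for BrM2 (1.63 ± 0.45, adjusted p 0.0148). A site with ZFHX4 as nearest start, 372778 bp away, had 23.9 and 27, 108 and 72.0, and 2.64 and 1.87 (1.80 ± 0.55, adjusted p 0.0465). AKAP12 and ZFHX4 were at the same time called lower in BrM2, at -2.32 ± 0.50 and -3.58 ± 0.85 (adjusted p 0.000373 and 0.00168). With the block PDE8B was called lower in BrM2 too (-0.93, adjusted p 0.0144, against 0.298 on cell line alone). At all 3 sites LM2 was above and BrM2 below every Par library. The ZFHX4 call in LM2 held in 2 of 12 alternatives and the AKAP12 call in 9 of 12.

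Next, H3K4me3 was read at the promoters of the genes nearest to distal losses (within 100 kb), leaving out promoters that a lost peak overlaps. For 418 distal BrM2 only peaks this gave 273 promoter peaks, of which 7 were called lower and 0 higher in BrM2 (40 and 1 at an unadjusted p under 0.05), a median log2 fold change of -0.33. Over all H3K4me3 peaks 0.791% were called lower in BrM2, and over all promoters of protein-coding genes 99 of 11989, with a median of -0.08. For LM2 only peaks, 3 of 104 promoters were called lower in LM2 and 0 higher (7 and 3 unadjusted), with a median of -0.09, and for peaks lost in both 2 of 38 were called lower in BrM2 and 0 in LM2 (8 and 5 unadjusted). edgeR called 7 promoters lower in BrM2 near BrM2 only peaks and peaks lost in both, where DESeq2 called 8. With the block, 113 of 273 promoters near BrM2 only peaks were called lower in BrM2 (41.4%) and 5 higher, beside 9.11% of all H3K4me3 peaks and 1745 of 11989 promoters called lower. Near LM2 only peaks the block called 16 of 104 promoters lower and 5 higher in LM2, and 26 of 105 lower and 2 higher in BrM2, where the median was -0.24 on cell line alone.

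Called promoters near BrM2 only losses included ABCA1, the cholesterol efflux transporter, at 452 and 459 normalized counts for Par, 328 and 336 for LM2 and 191 and 225 for BrM2 (-1.13 ± 0.32, adjusted p 0.017). NEK10, a kinase gene, was lower in both lines, at 90.0 and 91.7 for Par, 13.7 and 25.4 for LM2 and 7.91 and 19.3 for BrM2. The other promoters called lower in BrM2 near BrM2 only losses were AP1S2, DDX3X and ENSG00000288706 on X and AGPAT5 and DLC1 on chromosome 8. The part of neighbouring levels in these calls was not tested. Near LM2 only losses, ANKRD1, a target gene of YAP and TEAD, had 193 and 238 for Par, 45.7 and 106 for LM2 and 414 and 363 for BrM2 (LM2 -1.47 ± 0.42, adjusted p 0.0221). A further gene, MAF, an AP-1 related factor 56749 bp from a BrM2 only loss, was called higher in LM2 (1.40 ± 0.36, adjusted p 0.00654). These genes were picked from the called promoters after their values were seen.

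Gene lists show where losses fell among pathways. Of 17476 protein-coding genes with a peak marked in Par within 100 kb of a start, 1576 (9.02%) had a lost peak there. AP-1 factors had one at 6 of 18 genes, the TEAD and YAP pathway at 6 of 18, keratins and tight junction genes at 6 of 30, RUNX, ETS and KLF factors at 6 of 30, and plasminogen and metalloproteinase genes at 4 of 18. Cadherins and catenins had 0 of 17, antigen presentation and interferon genes 1 of 26, the epidermal growth factor family 1 of 12, integrins 1 of 18, cytokines and chemokines 2 of 29, the Wnt pathway 2 of 30, TGF-beta and BMP genes 3 of 31, MAP kinase feedback genes 3 of 21, axon guidance genes 3 of 33, and collagens and laminins 4 of 28. Neighbouring genes can share a peak, so these counts are not independent, and the peaks named below were picked as examples after their values were seen.

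Among AP-1 factors, 1 BrM2 only peak lay near both ATF3 and BATF3, with 18.5 and 13.3 CPM for Par, 15.3 and 16 for LM2 and 5.10 and 5.01 for BrM2. Another was near JDP2 and BATF, at 9.81 and 13.1, 6.67 and 10.4, and 2.80 and 4.01. Of 18 promoter H3K4me3 peaks of this list, DESeq2 on cell line called 1 higher in LM2, at MAF, and none of the others in either contrast. With the block it called 5 higher in LM2, and 1 lower and 2 higher in BrM2. Over all promoters of protein-coding genes, 66 of 11909 were called lower and 197 higher in LM2, and 99 of 11989 lower and 239 higher in BrM2 (with the block 906 and 1220 of 11865, and 1745 and 1031 of 11989).

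For the TEAD and YAP pathway, an intronic peak of YAP1 itself was lost in BrM2 only, at 29.0 and 16.7 CPM for Par, 22.3 and 18.9 for LM2 and 8.16 and 5.01 for BrM2. Losses in LM2 only lay near AJUBA (15.1 and 9.40 CPM in Par, 3.72 and 3.46 in LM2), AMOTL1 (7.75 and 8.87 against 2.17 and 2.13) and ANKRD1. The peak counted for AJUBA lay 77382 bp from it, with RBM23 as the nearest start, and is also counted for MMP14. Of 16 promoter H3K4me3 peaks of this list, DESeq2 on cell line called 1 lower in LM2, at ANKRD1, and no other in either line. With the block, 2 were called lower and 3 higher in LM2, and 4 lower in BrM2.

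Of the 6 keratin and tight junction genes with a loss, 5 were claudins. A CLDN2 peak was lost in LM2 only, at 30.8 and 44.4 CPM for Par, 8.68 and 9.84 for LM2 and 16.1 and 15.5 for BrM2. CLDN23 belongs to the 8p23.1 run, where its strongest peak had 41.7 and 44.4 CPM for Par, 25.6 and 27.9 for LM2 and 4.84 and 3.01 for BrM2. TJP1, which encodes the junction scaffold ZO-1, had 30.6 and 18.0, 15.7 and 12.8, and 11.7 and 6.02 at a BrM2 only peak. Of 22 promoter H3K4me3 peaks of the list, DESeq2 called 4 lower and 1 higher in BrM2 (8 and 2 with the block). CLDN4, which shares a BrM2 only peak with CLDN3, was called lower in both lines at its promoter (LM2 -3.44 ± 0.46, adjusted p 7.64e-11, and BrM2 -2.04 ± 0.44, adjusted p 0.000267), and CLDN11 in BrM2 (-3.14 ± 0.80, adjusted p 0.00513). The shared peak lay 25923 bp from CLDN3 and 83397 bp from CLDN4, with ABHD11 as the nearest start. That of CLDN11 lay 87458 bp away, with SLC7A14 as the nearest start.

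Near BMP4, a bone morphogenetic protein gene, lay the lost peak of the TGF-beta and BMP list with the highest Par level, 17956 bp from a start, at 55.0 and 66.0 CPM for Par, 33.3 and 44.1 for LM2 and 19.4 and 21.1 for BrM2. TGFBR1, a receptor, had 14.1 and 17.7, 11.6 and 12, and 4.33 and 4.51. Among matrix genes, COL5A1 had a BrM2 only peak at 33.1 and 56.9 CPM for Par, 23.4 and 38.8 for LM2 and 9.69 and 15 for BrM2, and COL1A2 had 1 at 18.9 and 19.3, 11 and 7.71, and 4.33 and 2.01. The MAP kinase feedback list had its losses near RGS4 (25.5 and 14.4 CPM in Par, 7.14 and 3.51 in BrM2) and at CAV1 and CAV2 (17.3 and 19.3 in Par, 8.68 and 8.51 in LM2, 6.88 and 5.51 in BrM2), the caveolin genes, which share a peak. Near ELF3, an epithelial ETS factor, a BrM2 only peak had 18.0 and 9.92 CPM for Par, 15.3 and 8.24 for LM2, and 3.57 and 3.51 for BrM2.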

How the data were processed

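H3K27ac and H3K4me3 ChIP-seq libraries of Par, LM2 and BrM2 cells were used, 2 biological replicates per line and mark. The authors deposited unnormalized counts of reads for each peak, which featureCounts gave on hg19 after extending reads by 150 bases. Per the submitters' processing notes the tools were Trimmomatic 0.32, CASAVA 1.8.2, Bowtie2 2.3.4.3, Picard 2.18.21, MACS2 2.1.2 and HOMER 4.10. Peaks were called on the merged libraries of a mark, so a site weak in all lines may have no peak. The labels give 10 min of fixation. The 3 input libraries were not analysed here.

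CPM was computed on column totals, and H3K27ac ratios were taken between replicates of the same number. H3K4me3 was tested with DESeq2 1.42.0 in R 4.3.3 (Wald test on cell line, all 6 libraries, Benjamini-Hochberg adjustment over all H3K4me3 peaks tested), at the H3K4me3 peak sharing most bases with a lost peak. Alternatives were DESeq2 with the replicate number as a block, edgeR 4.0.16, other scalings and limits, and leaving out libraries. Same-numbered replicates deviated together (r from 0.796 to 0.857 for H3K4me3 and from 0.402 to 0.599 for H3K27ac over pairs of lines), so the numbers were taken to pair the samples. The main fit on cell line left this pairing out. Over all H3K4me3 peaks it called fewer than the block did in each contrast. Start sites were those of GENCODE release 44 on GRCh37, a promoter peak lay within 2 kb of one, and motifs were searched in the central 1 kb on both strands. Intervals cover counting error only. The members and gene lists were chosen with earlier results of these data known. Genes were named by rule: in each class the 5 peaks with the highest Par CPM and the 5 with the lowest ratios at 8 CPM or more, and the H3K4me3 peaks with the largest falls at a mean of 50 normalized counts or more, or called higher; other names are marked as chosen after their values were seen. The fitting was tested on simulated data. A few items are not reported here.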

Additional observations from a re-analysis of the deposited data

Results flagged for a closer look

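A direct DESeq2 test of BrM2 against LM2 found differences in H3K4me3 between the metastatic lines at lost peaks. It called 11 H3K4me3 peaks at LM2 only peaks higher in BrM2, 25 at BrM2 only peaks lower in BrM2, and 1 at a peak lost in both lower in BrM2. At LM2 only peaks the log2 difference of BrM2 minus LM2 was 4.64 at DACT2, 3.40 at FAM24B, 2.52 at ZYG11A, 2.27 at FRG2C and 1.77 at FAM83H. At BrM2 only peaks it was -4.00 at IFITM10, -3.89 at IRX1, -3.18 at PRAG1, -3.15 at CLDN23 and -2.94 at MFHAS1. At the sites where LM2 was above Par it was -3.62 at PDE8B, -5.38 at ZFHX4 and -3.95 at AKAP12. KLF14, lost in both, gave -4.49. Only sites that passed this test are listed, so their adjusted p values are low by choice (DESeq2, largest 0.000757, at FAM83H). Of the sites named by rule, ZNF429 (0.11, adjusted p 0.994) and ZNF680 (-0.66, adjusted p 0.755) did not pass. All these sites were first picked by their change against Par in the same H3K4me3 libraries, so the sizes given are selected.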

How the results depend on the processing

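The number of lost peaks followed the limits of the rule. With a ratio limit of 0.3 there were 77 LM2 only, 272 BrM2 only and 38 both, with 0.5 there were 455, 1369 and 281, and with a Par floor of 8 CPM 109, 386 and 55. Requiring all 4 ratios between replicates left 131 LM2 only and 68 both, and dividing by the 5-Mb median left 387 BrM2 only and 53 both. On 1 replicate alone, without replicate 1 or 2, LM2 only ranged from 749 to 871, BrM2 only from 1671 to 1851 and both from 404 to 521. The promoter share was 17.4% within 5 kb and 15.9% at a limit of 0.5, and the share in runs was 30.5% at 250 kb and 51.8% at 1 Mb. H3K4me3 peaks called lower in LM2 at its losses (20) ranged from 8 to 17 without 1 library (8 without Par replicate 2, 10 without LM2 replicate 2), and those called lower in BrM2 (42) from 13 to 42 (20 and 13 without Par replicates 1 and 2, 21 and 14 without BrM2 replicates 1 and 2). Against LM2, the 25 called lower ranged from 13 (without BrM2 replicate 2) to 20 and the 11 called higher from 6 (without LM2 replicate 2, and 7 without BrM2 replicate 1) to 11; a line left with 1 library was assumed to vary like the others. With the replicate block, DESeq2 called 70 lower in BrM2 against Par and 52 against LM2, and edgeR with the block 35, 101 and 76 lower and 17 higher. Near distal losses, the block called 126 promoters (8 without it), an alternative chosen after seeing the data. Of the sites named by rule, DACT2 lost its call without LM2 replicate 2 (adjusted p 0.0709), ZNF429 (0.105), FRG2C (0.0804) and ZNF680 (0.0908) without Par replicate 2, AKAP12 without Par replicate 2 or either LM2 replicate (adjusted p up to 0.781), and ZFHX4 in 10 of 12 alternatives (up to 1). These alternatives were run for the 16 sites named by rule in H3K4me3, each in the line or lines that named it, and there the block ended no call and no direction turned. The second BrM2 library of H3K27ac limits the low ratios most.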
